A study of Mus musculus with 20 samples.

Results

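The replication-dependent histone genes of the mouse lie in compact clusters, and the peaks of open chromatin assigned to them are described here across a time course of myeloid differentiation. Their members were the peaks in 10 deposited lists whose nearest gene has a name beginning with Hist and a cluster number, from Hist1h to Hist4h. There were 826 such peaks among 504887 peaks in all lists. They were assigned to 64 genes, and all 64 matched an entry of the RefSeq table by gene identifier. That table (assembly GRCm38.p6) holds 70 genes with such names, of which 67 are protein coding and 3 are pseudogenes. By protein family they are 6 linker histone H1 genes, 20 H2A, 19 H2B, 12 H3 and 13 H4 genes. The Hist1 group on chromosome 13 has 56 of them, Hist2 on chromosome 3 has 10, Hist3 on chromosome 11 has 3, and Hist4h4 stands alone on chromosome 6.

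Core histones H2A, H2B, H3 and H4 form the protein spool around which nuclear DNA is wound, and H1 binds the linker between spools. Most of this protein is made in S phase, when newly copied DNA has to be packaged, from many small genes without introns whose mRNAs end in a stem-loop in place of a poly(A) tail. Many H2A and H2B genes are arranged as divergent pairs that are transcribed away from a shared stretch of promoter DNA. When granulocytes and macrophages mature they stop dividing, and the demand for these proteins ends with it.

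The assay was ATAC-seq, where Tn5 transposase inserts sequencing adapters into accessible DNA, and it was applied to the mouse cell line ER-Hoxa9-Lys-GFP of strain C57BL/6. As its name states, the line carries the homeobox factor Hoxa9 joined to an estrogen receptor (ER) and a lysozyme GFP reporter, and it was grown in medium with stem cell factor (SCF). Cells kept in estradiol (E2) are the 0 h group, and the other groups were collected 4, 8, 12, 24, 36, 48, 72, 96 and 120 h after E2 was washed out. Each of the 10 groups has 2 samples, 20 in all. All groups are the same line, so results hold for 1 line in culture. The protocol describes nuclei divided between 2 transposition reactions, so the 2 samples of a group may be technical repeats. The deposited lists give 1 peak set per time point and none per sample. No spread between replicates could therefore be computed, no test between times was possible, and no p-value is given. An interval below covers counting error only, at the 95% level. In a bulk culture, fewer cells with an open site and less opening in each cell cannot be told apart. Cell division was not measured in the data used here.

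The lists held between 23620 peaks (120 h) and 62559 peaks (24 h), and the 0 h list held 55261. Read depth per sample is unknown, and the deposited score of every peak was 0, so position and width were the measures left. A shorter list and less accessible chromatin cannot be told apart from the list itself, and values over all peaks are therefore given beside those of the histone genes. As a check of the label, all 8 myeloid marker genes looked up had a peak at 0 h, including Spi1, the master factor of the myeloid lineage, with 4 peaks. Among markers of other cells that are reported here, Myod1 had 2 peaks at 0 h, while Cd3e, Alb, Hbb-b1 and Sox2 had none. Cd3e and Alb each had 1 peak in some later lists. In all, 18094 genes had an assigned peak at 0 or 120 h, so a peak alone does not set a cell type apart.

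The sequences over which these peaks lie show what the families share. Each line below is the 150 bases that end just before a RefSeq gene start, or the whole stretch between a divergent pair of starts, read 5′ to 3′ on the strand of the gene from the RefSeq promoter table (GRCm38.p6, identical to mm10 here). Capitals mark letters of the motifs spelled out in the next paragraph, on either strand. Hist1h2bm (chr13:21721894-21722043, plus strand) is an H2B promoter with an octamer. Hist1h4i (chr13:22041363-22041512, minus strand) and Hist1h4b (chr13:23756787-23756936, plus strand) are H4 promoters, the first covered by a peak in every list and the second without a peak at 96 and 120 h. Hist1h3b (chr13:23752195-23752344, plus strand) is an H3 promoter covered in every list. Hist1h1c (chr13:23738657-23738806, plus strand) encodes the linker histone H1.2 and its start had no peak over it at 120 h. The last line is the 228 bases between the starts of Hist1h2bl and Hist1h2ai (chr13:21716184-21716411, plus strand), the shared promoter of an H2A and H2B pair.
Hist1h2bm: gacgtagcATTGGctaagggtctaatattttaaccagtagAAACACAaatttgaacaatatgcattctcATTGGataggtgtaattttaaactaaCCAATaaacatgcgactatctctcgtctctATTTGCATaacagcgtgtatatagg
Hist1h4i: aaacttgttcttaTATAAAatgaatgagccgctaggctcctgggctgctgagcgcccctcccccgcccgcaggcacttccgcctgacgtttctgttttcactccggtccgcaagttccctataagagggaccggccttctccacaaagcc
Hist1h4b: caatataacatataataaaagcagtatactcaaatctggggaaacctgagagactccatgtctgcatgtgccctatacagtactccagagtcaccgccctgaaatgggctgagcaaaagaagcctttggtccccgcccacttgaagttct
Hist1h3b: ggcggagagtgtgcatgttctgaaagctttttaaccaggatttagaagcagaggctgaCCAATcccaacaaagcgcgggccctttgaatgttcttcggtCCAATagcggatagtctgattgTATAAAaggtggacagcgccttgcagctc
Hist1h1c: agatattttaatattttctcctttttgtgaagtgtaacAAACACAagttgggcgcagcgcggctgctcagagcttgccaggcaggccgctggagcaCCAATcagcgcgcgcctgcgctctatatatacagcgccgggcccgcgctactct
Hist1h2ai spacer: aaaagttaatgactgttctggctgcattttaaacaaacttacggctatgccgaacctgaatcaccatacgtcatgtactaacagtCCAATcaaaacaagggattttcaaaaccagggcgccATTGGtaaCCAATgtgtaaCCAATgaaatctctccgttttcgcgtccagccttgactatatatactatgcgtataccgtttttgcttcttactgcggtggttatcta

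Windows of 300 bases, from 250 before to 50 after a start, were available for 62 of the 70 histone genes (63 windows) and for 32851 starts in all, and each was searched on both strands. CCAAT (reverse complement ATTGG), the box bound by the factor NF-Y, was in 54 of 63 histone windows (85.7%) and in 37.4% of all windows. It was in every H1, H2A, H2B and H3 window and in 3 of 12 H4 windows. The octamer ATTTGCAT, bound by POU factors such as the Pou2f1 product, was in 7 of 18 H2A and 7 of 17 H2B windows, against 1.74% of all windows, and in no H1, H3 or H4 window. TATAAA was in 35 of 63 histone windows (55.6%) and in 13.6% of all. AAACACA, known from H1 promoters, was in 5 of 6 H1 windows and in 7.18% of all. The letters CGTCCGC were in 1 of 63 histone windows and in 2.75% of all. Windows of a divergent pair overlap, so 1 match can count for both genes, and a match is a description of the letters only.

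Histone promoters stayed listed as open through 120 h in about the same proportion as promoters in general. Peaks at most 1000 bp from the nearest start as deposited were called promoter peaks. The nearest peaks on either side of that limit lay at 995 and 1014 bp. Histone promoter peaks numbered 56 at 0 h, then 54, 51, 50, 51, 53, 51 and 48 at 4, 8, 12, 24, 36, 48 and 72 h, 54 at 96 h and 46 at 120 h. The 120 h number was 82.1% of that at 0 h, and for all promoter peaks it was 84.5%. Distal histone peaks numbered 35 at 0 h, reached 41 at 24 h, and were 31, 20 and 11 at 72, 96 and 120 h. The promoter share of histone peaks was thus 61.5% at 0 h (interval 51.3 to 70.9%) and 80.7% at 120 h (68.7 to 88.9%), against 19.2% and 38.0% of all peaks.

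Following the 0 h peaks gave the same picture. Of 56 histone promoter peaks at 0 h, 43 were overlapped by at least 1 bp of a 120 h peak, or 76.8% (64.2 to 85.9%), against 75.0% of all 0 h promoter peaks. At 96 h the share was 91.1% (51 of 56, interval 80.7 to 96.1%), against 79.3% of all, and at 72 h it was 87.5% against 83.3%. The histone promoters therefore stood above the general share at 96 h and level with it at 120 h. Of 35 distal histone peaks, 8 were overlapped at 120 h, or 22.9% (12.1 to 39.0%), against 22.5% of all distal peaks. At 96 h the distal share was 45.7% against 30.6%, and at 72 h it was 71.4% against 54.3%. The interval of the histone distal share spans the value over all peaks at 120 h and at 96 h it begins just below it (30.5%).

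**Figure D1:**
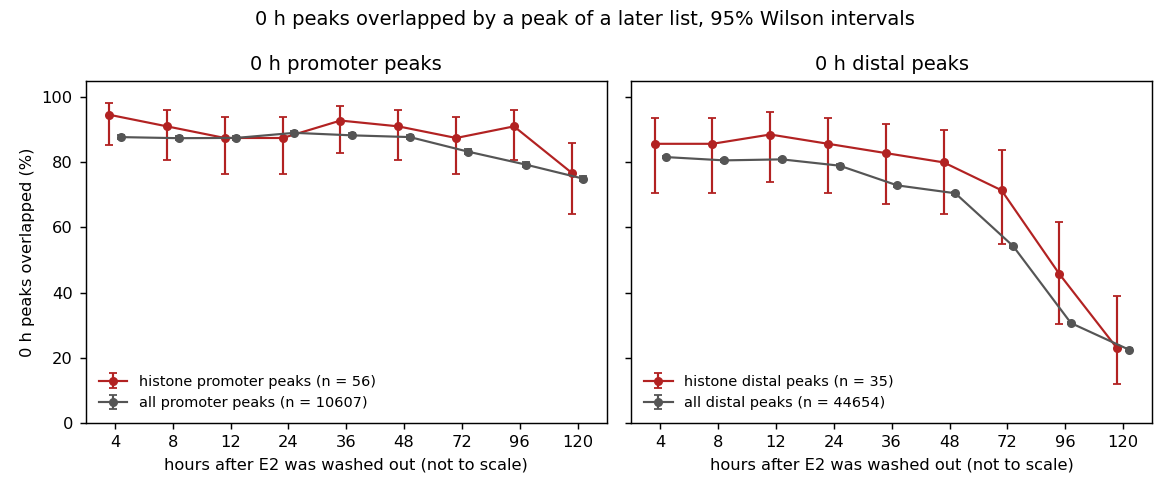
Share of 0 h promoter peaks (left) and distal peaks (right) overlapped by a peak of each later list, in percent, against hours after E2 was washed out, for histone genes (red) and all genes (grey), with 95% Wilson intervals. Histone promoter peaks were overlapped at 91.1% at 96 h and 76.8% at 120 h, and histone distal peaks at 45.7% and 22.9%.

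Gene starts gave a count that does not depend on which gene a peak was assigned to. For 61 histone genes with a single RefSeq start window, a peak lay over the start of 57, 53, 55 and 49 at 0, 72, 96 and 120 h. The first of these is 93.4% (interval 84.3 to 97.4%) and the last 80.3% (68.7 to 88.4%). Over the 22862 genes of the table with a single window, starts were covered at 31.4% at 0 h and 29.7% at 120 h. Of the 57 histone starts covered at 0 h, 49 were covered at 120 h, beside 82.6% of all starts covered at 0 h. In all, 38 of the 61 starts were covered in every one of the 10 lists, beside 4017 of the 22862 starts of all genes. Those covered at 0 h numbered 57 and 7181.

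The families were covered to differing degrees at the end of the course. H2B starts were covered at 13 of 15 at both 0 and 120 h, and H2A starts at 17 and 16 of 18. H4 starts were covered at 12 of 12 at 0 h and 10 of 12 at 120 h, H3 starts at 10 of 10 and 7 of 10, and H1 starts at 5 of 6 and 3 of 6. Starts were also counted by position. All 22 starts with another histone gene within 500 bp upstream that were covered at 0 h were also covered at 120 h, while of 35 covered starts without one, 27 were. Every start with such a neighbour is an H2A or H2B start, so this count does not separate position from family. Paired starts also share a peak and are not independent. With so few genes in each family no difference between families was tested.

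The 8 starts covered at 0 h and not at 120 h belong to H1, H3, H4 and 1 H2A gene. Hist1h1b, which encodes H1.5, and Hist1h4b had no peak over the start at either 96 or 120 h. Hist1h1c, Hist1h2af, Hist1h3d, Hist1h3h, Hist1h3i and Hist4h4 were still covered at 96 h. The promoter peak of Hist1h3h spanned 527, 511 and 293 bp at 0, 72 and 96 h before it was no longer listed. The peaks of Hist1h3d (535, 496 and 318 bp) and Hist1h3i (575, 490 and 392 bp) ran the same course. These 3 H3 promoters were thus narrower at 96 h than at 72 h before they dropped out of the list. Hist4h4, the single H4 gene on chromosome 6, had peaks of 1089, 1080 and 902 bp at the same times. The 0 h promoter peaks without an overlap at 120 h had a median width of 527 bp, against 1025 bp for those with one.

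Hist1h1c stood apart from the others because its chromatin stayed listed away from the start. At 0 h its peak ran from 152 bp upstream of the start to 1416 bp downstream, and at 96 h from 157 to 1356 bp. At 120 h the remaining peak of 834 bp (chr13:23739386-23740219) lay over the 3′ end of the gene and beyond it, and no peak covered the start. Hist1h1b also kept a peak assigned to it at 120 h, more than 1000 bp from its start.

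A further 4 starts were not covered in any list. They are Hist1h1t, which encodes the testis linker histone H1t, Hist1h2ba and Hist1h2aa, which encode the testis forms of H2B and H2A, and Hist3h2ba, an H2B gene of the Hist3 group. Hist1h2ba had a peak of 301 bp over its gene body at 0 h that did not reach the start and was absent from the other 9 lists. Gaps also occurred inside the course. At 72 h, 4 of 53 histone starts that were covered at 48 and 96 h had no peak (7.55%), namely Hist2h2ab, Hist2h3c2, Hist2h2aa2 and Hist1h2ac, against 7.76% of all such starts. The absence of a peak from 1 list was therefore not read as closing.

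The widths of histone promoter peaks differed from those of promoters in general more than their counts did, and most between 72 and 96 h. The median width of histone promoter peaks was 879.5, 828.5, 802 and 820.5 bp at 0, 72, 96 and 120 h, but these medians are over differing sets of peaks. Comparing each 0 h peak with the widest peak that overlapped it, the median ratio of widths was 0.97, 0.98, 0.98 and 0.97 at 24, 36, 48 and 72 h, then 0.81 at 96 h (interval 0.76 to 0.87) and 0.80 at 120 h (0.68 to 0.86). Over all promoters the ratios were 0.98, 0.94, 0.95, 0.99, 0.95 and 0.95. Histone promoter peaks thus stayed near their 0 h width through 72 h, while promoters in general were slightly narrower at 36 and 48 h. At 120 h, 39 of 43 overlapped histone promoter peaks were narrower than at 0 h (90.7%), beside 62.9% of all. In the single step from 72 to 96 h, 44 of 45 were narrower (97.8%), with a median ratio of 0.86, beside 62.4% and a median of 0.97 for all promoters. The step from 96 to 120 h had a median of 0.97, with 34 of 46 narrower (73.9%), beside 0.99 and 53.5% for all promoters. From 0 to 72 h, 37 of 49 were narrower (75.5%), beside 57.9% of all. Summed promoter peak length of the histone genes was 53.0 kb at 0 h and 36.1 kb at 120 h, or 68.1% of it, against 86.8% for all promoters.

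**Figure D2:**
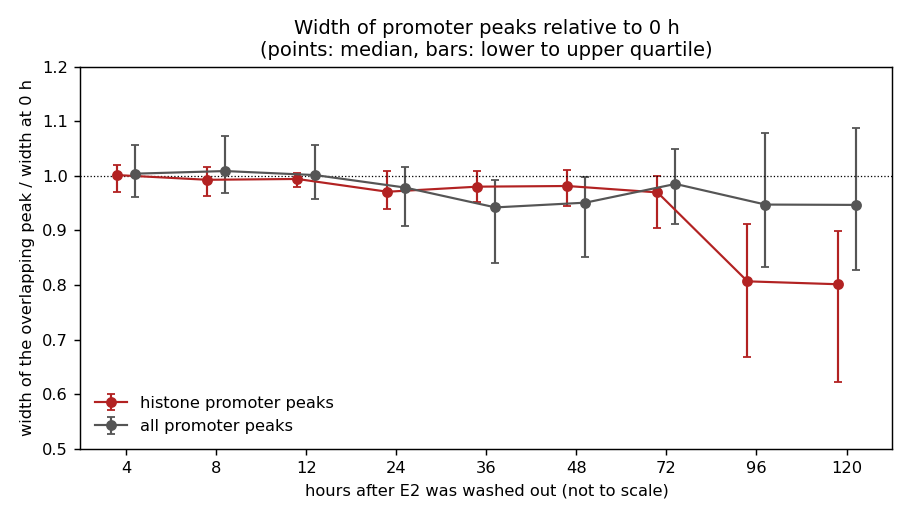
Width of the promoter peak overlapping each 0 h promoter peak, as a ratio to its 0 h width, against hours after E2 was washed out, for histone genes (red) and all genes (grey), with the median as a point and the lower to upper quartile as a bar. The histone median is 0.97, 0.81 and 0.80 at 72, 96 and 120 h, where at 120 h the median of all promoters is 0.95.

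Over all promoters, wide 0 h peaks had lower ratios than narrow ones, so the comparison was repeated in classes of 0 h width given by the quartiles of all promoter peaks. For peaks of 612 to 836 bp the median ratio at 120 h was 0.80 over 12 histone peaks and 1.02 over all. For peaks of 837 to 1052 bp it was 0.72 over 8 histone peaks and 0.94 over all. For peaks of 1053 bp and more it was 0.80 over 21 histone peaks and 0.86 over all. The histone median was lower in each class, and by the least in the widest one. Divided by the median of all promoters in its class, the histone ratio was 0.87 (0.69 to 0.96), and 35 of 43 peaks were below 1. In the narrowest class, up to 611 bp, 2 of 11 histone peaks were overlapped at 120 h (18.2%), against 43.5% of all peaks that narrow, whereas at 96 h 8 of 11 were, against 52.0%.

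The narrowing was larger on the downstream side of the start, where the gene lies. For each covered start, the distance from the start to the edge of its peak was measured upstream and downstream along the gene. Among 49 histone starts covered at both 0 and 120 h, the downstream edge was nearer to the start at 120 h in 48, beside 66.4% of all such starts, and its median shift was -113 bp (-221 to -66), beside -31 bp. The upstream edge was nearer in 35 of the 49, beside 58.9% of all, with a median shift of -15 bp, beside -12 bp. These 49 starts lay in 38 distinct 0 h peaks, because paired genes share one. From 72 to 96 h the downstream edge was nearer in 48 of 51 histone starts, beside 65.6% of all, by a median of -93 bp (-131 to -56), beside -20 bp. The upstream edge was nearer in 33 of 51, beside 57.1%, by a median of -12 bp, beside -8 bp.

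Starts without another histone gene within 500 bp upstream were taken apart from the rest. Over 27 such starts the downstream edge moved by a median of -246 bp (-339 to -99) from 0 to 120 h and was nearer in 26. The upstream edge moved by 0 bp (-6 to 13) and was nearer in 13. From 0 to 72 h the downstream shift over 32 starts was -26.5 bp, and from 72 to 96 h over 30 starts it was -130.5 bp, with 0.5 bp upstream. For 5 of the 27 the peak nevertheless lay over another histone gene at 0 or 120 h, among them Hist2h3c1, whose peak reached 1604 bp upstream at 0 h and 583 bp at 120 h, and Hist2h3c2, with 1471 and 627 bp. In the 22 starts whose peak lay over no other histone gene at either time, a subset chosen after seeing the data, the downstream shift was -225 bp (-323 to -65), nearer in 21, and the upstream shift was 0 bp (-6 to 13), nearer in 10. Among 22 starts with a histone gene within 500 bp upstream, both edges were nearer at 120 h in all 22, by -73.5 bp upstream and -65 bp downstream. In a divergent pair the upstream edge of 1 start is the downstream edge of the other. Where both starts of a pair are counted, the upstream and downstream values are therefore the same edges and not independent. The downstream edge lay within the gene itself in 23 of the 49 starts at 0 h and in 45 at 120 h, and past the gene end in the others. Other protein-coding genes of at most 1000 bp are longer (median 920 bp among those with a covered start at 0 h). Their downstream shift from 0 to 120 h was -22 bp (-122 to 0) over 27 starts, and 19 were nearer. From 0 to 96 h it was -36.5 bp (-129 to -15) over 28 starts, with 23 nearer. Over all histone starts the shift from 0 to 96 h was -98 bp (-162 to -68), with 51 of 55 nearer. At both times the intervals of these short genes and of all histone starts overlap.

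**Figure D3:**
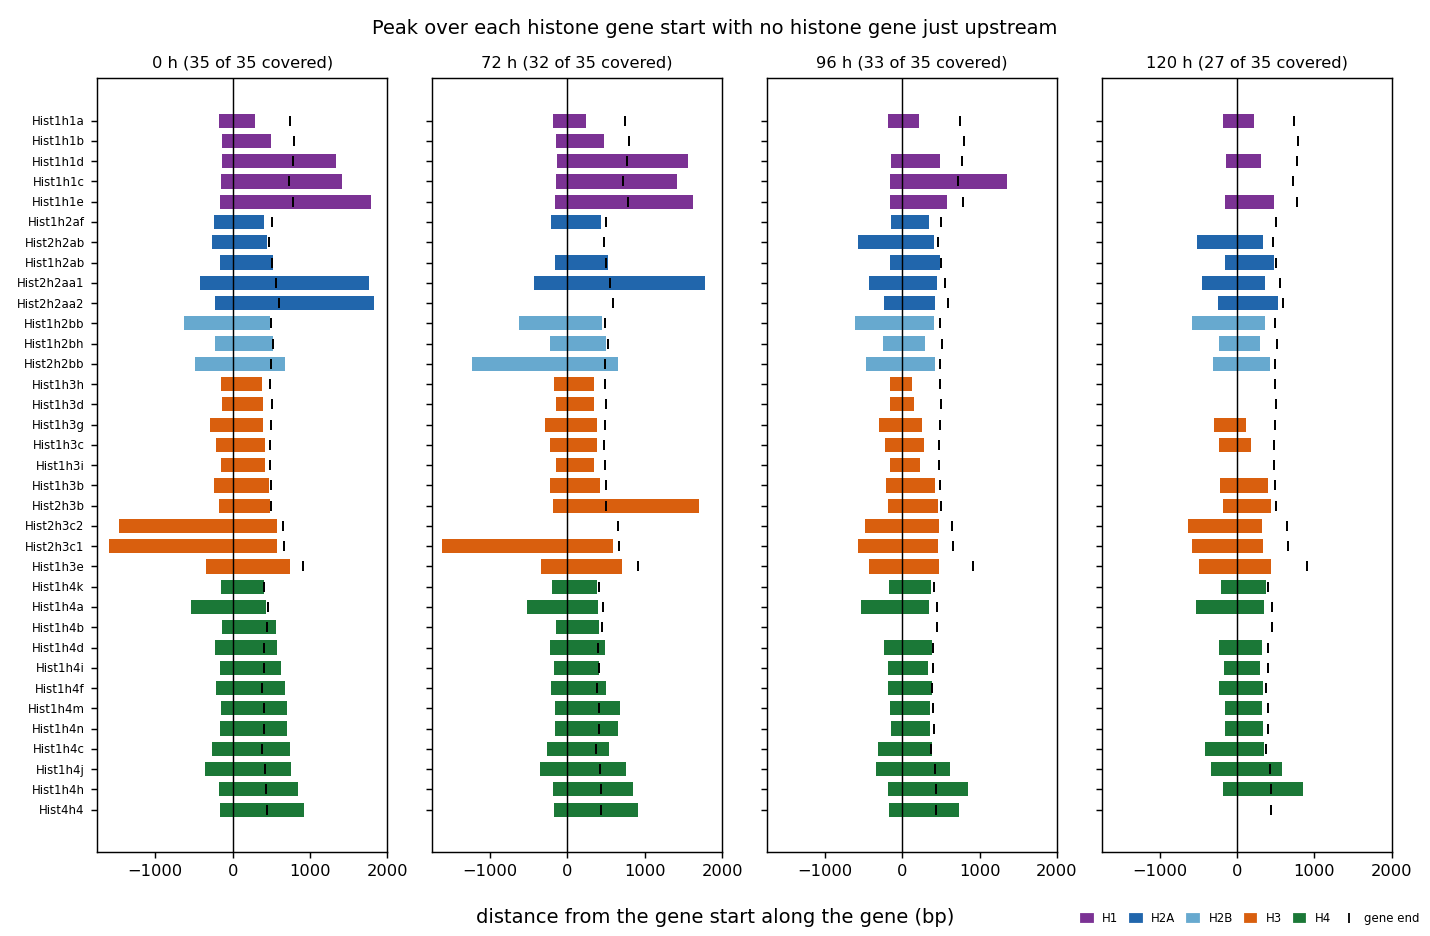
Extent of the peak over each histone gene start with no histone gene within 500 bp upstream, at 0, 72, 96 and 120 h, as distance in bp along the gene from its start (0), with colours for the protein family and a tick at the gene end. The downstream ends of the bars are shorter at 96 and 120 h than at 0 h, by a median of -246 bp at 120 h, while the upstream ends moved by 0 bp.

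Single genes had the following reach, in bp downstream of the start at 0, 72, 96 and 120 h. Hist1h1d, which encodes H1.3, had 1336, 1556, 483 and 309. Hist1h1e, which encodes H1.4, had 1784, 1625, 576 and 484, so in both the peak held the whole gene at 0 and 72 h and ended inside it at 96 and 120 h. Hist1h4i had 622, 409, 339 and 299, with its upstream edge between 166 and 177 bp at those times. Hist1h4n, another H4 gene, had 707, 660, 360 and 335, and Hist1h3g, an H3 gene, had 391, 385, 254 and 118. These values are ordered in time in each gene except Hist1h1d, where 72 h is above 0 h. Hist1h4h did not shorten, with 848 bp at 0, 72 and 96 h and 851 bp at 120 h. Hist1h4k, also an H4 gene, moved little, with 408, 388, 375 and 377 bp, and its whole peak measured 564 bp at 0 h and 586 bp at 120 h. By family the median downstream shift from 0 to 120 h was -1027 bp over 3 H1 starts, -288 bp over 10 H4, -241 bp over 7 H3, -113 bp over 13 H2B and -60.5 bp over 16 H2A starts. It was nearer in every one of these starts except that of Hist1h4h.

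Some of the narrowing was a wide peak giving way to more than 1 peak. Of the 51 starts covered at both 72 and 96 h, the 72 h peak over 6 was overlapped by more than 1 peak at 96 h: Hist2h2aa1, Hist2h3c1, Hist2h3b, Hist2h2bb, Hist1h1d and Hist1h1e. From 0 to 72 h none of 53 was, beside 77 of 6177 over all starts. Over all starts this befell 41 of 6353 from 72 to 96 h. Without the 6 starts the downstream shift from 72 to 96 h was -72 bp, nearer in 42 of 45. From 0 to 120 h the 0 h peak over 6 of 49 starts was so divided, beside 27 of 5928 over all starts. Without those 6 starts the downstream shift from 0 to 120 h was -99 bp (-174 to -59), nearer in 42 of 43. The shift was therefore also present where 1 peak stayed 1 peak.

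Because these genes are short, with a median length of 485 bp for the 58 histone genes of at most 1000 bp, a promoter peak can hold a whole gene. At 0 h, 30 of 54 of these genes with a covered start had their 3′ end in the same peak (55.6%, 42.4 to 68.0%). By 72 h this held for 21 of 50 (42.0%), by 96 h for 8 of 52 (15.4%) and by 120 h for 4 of 46 (8.70%, 3.43 to 20.3%). Of other protein-coding genes of at most 1000 bp, 2 of 34 had both ends in 1 peak at 0 h and 0 of 34 at 120 h. These are not matched in length, with a median of 920 bp against 487.5 bp for the covered histone genes at 0 h, so a peak has to be longer to hold both ends. The families differed in this at 0 h. Both ends were in the peak for 11 of 12 H4 genes, 7 of 10 H2B, 9 of 17 H2A, 3 of 5 H1 and 0 of 10 H3 genes. At 120 h the count was 2 of 10 H4 genes, 2 of 16 H2A genes and 0 of the covered H1 (3), H2B (10) and H3 (7) genes. The 4 that remained were Hist1h4h, Hist1h4j, Hist1h2ai and Hist3h2a. H3 peaks ended short of the gene end from the outset, so the loss of whole-gene coverage was counted mainly in H4, H2A and H2B genes.

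**Figure D4:**
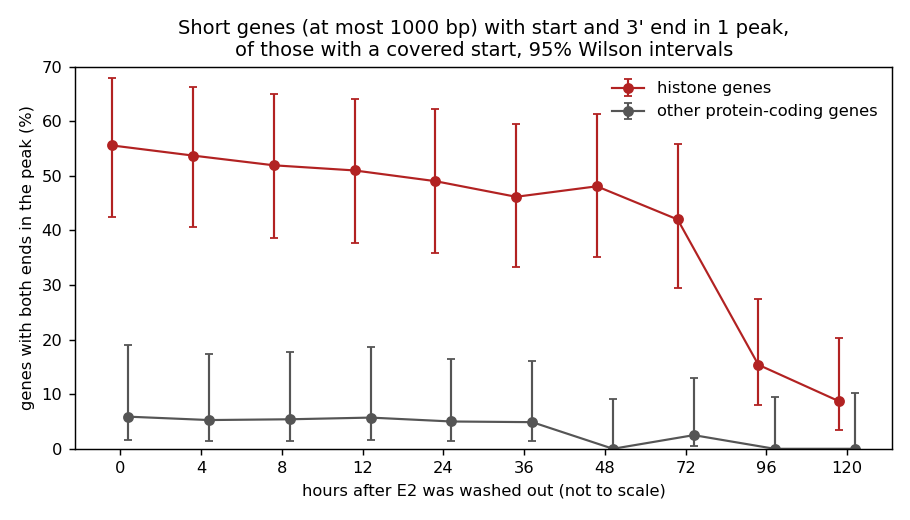
Share of genes of at most 1000 bp, among those with a covered start, whose start and 3′ end lie in 1 peak, in percent, against hours after E2 was washed out, for histone genes (red) and other protein-coding genes (grey), with 95% Wilson intervals. The other genes are longer, with a median of 920 bp at 0 h against 487.5 bp. The histone share is 55.6%, 42.0%, 15.4% and 8.70% at 0, 72, 96 and 120 h.

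Of 7 Hist2 promoter peaks overlapped at 120 h, 5 were narrower than at 0 h, with a median ratio of 0.62 over the 7, and of 35 in Hist1, 33 were, with 0.82. The other 2 in Hist2 were wider: that of Hist2h2ab measured 714 and 860 bp at 0 and 120 h, and that of Hist2h4, an H4 gene, 812 and 1023 bp. In the lists a peak between paired genes is given to 1 gene, and a shift of its centre gives it to the other. For 23 histone genes an assigned promoter peak was listed at only 1 of 0 and 120 h, and for 11 of the 19 of them with a start window the start was covered at both times. Such exchanges included Hist1h2bg with Hist1h2ae (1276 bp at 0 h, 971 bp at 120 h), Hist1h2bj with Hist1h2ag (1161 and 1049 bp), Hist1h2bc with Hist1h2ac (1478 and 1078 bp), Hist2h2be with Hist2h2ac (1220 and 689 bp) and the pseudogene Hist3h2bb-ps with Hist3h2a (1535 and 1186 bp). In each the peak itself was narrower at 120 h. Hist2h3b and Hist2h2bb, an H3 and an H2B gene side by side, lay under separate peaks of 661 and 1174 bp at 0 h, under 1 joint peak of 1889 bp by 72 h, and under separate ones of 620 and 727 bp by 120 h. Hist2h4 had a further promoter peak of 390 bp at 0 h with no overlap at 120 h, and it had no promoter peak at 72 h.

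The widest histone promoter peaks at 0 h were those of Hist2h3c1, of 2048 and 2182 bp, each over an H3 and an H2A gene of a duplicated segment. At 96 h the parts over the H3 and the H2A starts were separate peaks. The genes of this segment are near copies. For 10 of 63 histone windows at least 50% of the 20-base words were also in the window of another histone gene, with 100% for Hist1h2bq and Hist1h2br, 94.7% for Hist1h4m and Hist1h4n and 87.5% for Hist2h3c1 and Hist2h3c2. Reads of such copies can be placed at either, so their peaks are not independent. Without the peaks of these genes the median width ratio at 120 h was 0.82 over 37 peaks.

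Distal histone peaks, more than 1000 bp from a start, became fewer as the lists became shorter, and some of them lay over genes of another kind. Merged across lists they formed 51 regions without a promoter peak, of which 31, 29, 17 and 9 were listed at 0, 72, 96 and 120 h. RefSeq places a tRNA gene in 11 of the 51, since a large tRNA gene cluster is interleaved with the Hist1 genes. All 11 were listed in each list from 0 to 72 h, 9 were at 96 h and 4 at 120 h. Of the other 40 regions, 20, 18, 8 and 5 were listed at the same times. The regions nearest to Hist1h4h were 7 in number at 0 h and 6 of them held tRNA genes, among them n-TQttg4 and n-TSgct4. The region at n-TSgct5, nearest to Hist1h2bj, was listed in all 10 lists with widths of 1023 and 976 bp at 0 and 120 h. So peaks assigned to a histone gene by distance are in part peaks of tRNA genes.

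Hist1h2al, a histone pseudogene on the same chromosome outside the clusters, had 10 distal regions over all lists, of which 4, 6 and 1 were listed at 0, 24 and 72 h and none at 96 or 120 h. They lay between 8881 and 96118 bp from it, so nearness to a histone gene is nominal there. Hist1h2br had 8 distal regions, and 2 of them were listed only late. The region chr13:21808600-21808942 was listed with 234, 338 and 339 bp at 72, 96 and 120 h, and chr13:21835008-21835323 with 316 bp at 96 and 120 h. They lie 1426 and 1422 bp from a start, within the near-identical Hist1h2bq and Hist1h2br copies. Hist1h2be, an H2B gene, had 3 distal regions, of which 1 was listed from 0 to 72 h and none at 96 or 120 h. Hist2h2be, an H2B gene of the Hist2 group, had a region 5750 bp away that was absent at 0 h and listed in the other 9 lists, with 466 bp at 120 h.

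**Figure D5:**
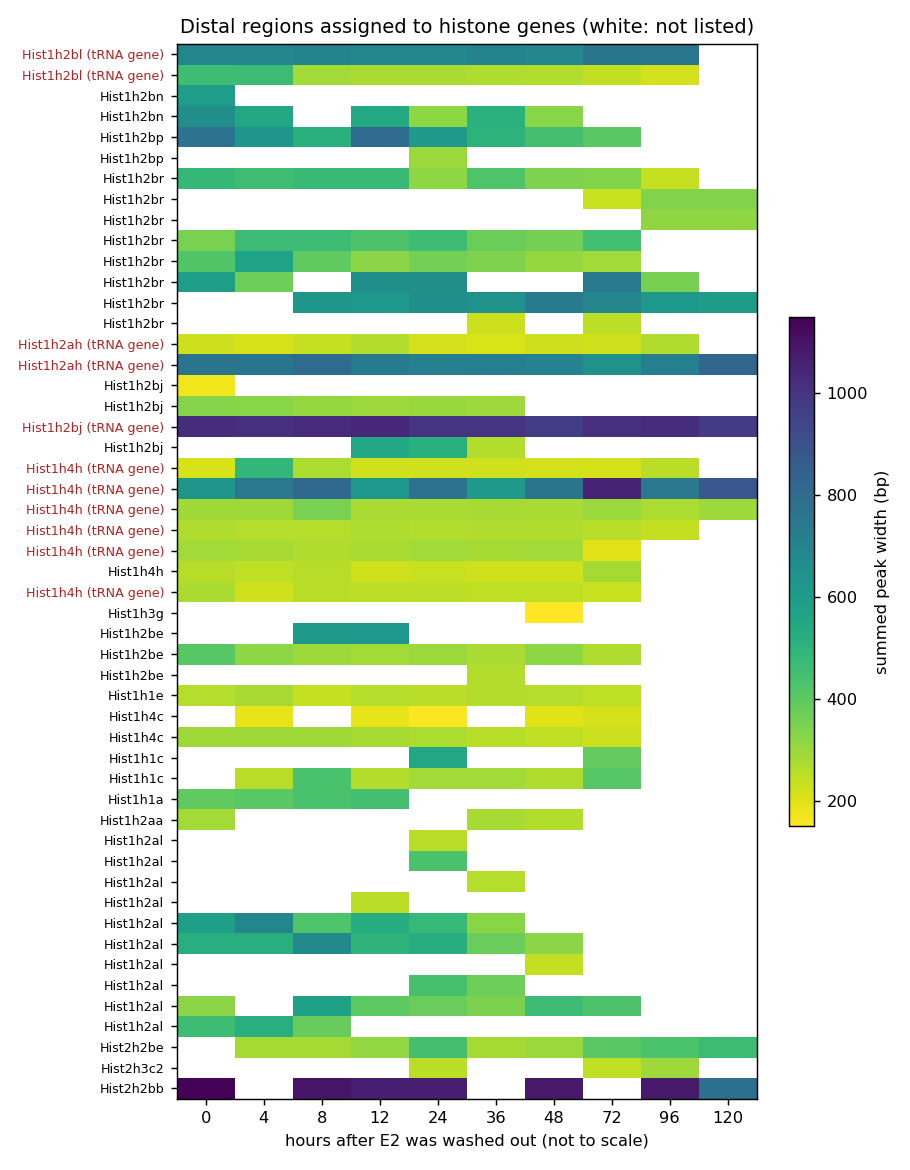
Summed peak width in bp (colour) of each of the 51 distal regions assigned to histone genes (rows, in genome order, named by the gene and in red where a tRNA gene lies in the region) in each list by hours after E2 was washed out, with white for not listed. Of the 31 regions listed at 0 h most are white at 120 h, where 9 regions are listed, 4 of them with a tRNA gene.

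The genes that switch the histone clusters on and process their mRNA had promoter peaks that in the median were about as wide at 120 h as at 0 h, though not in each gene. Of 17 promoter peaks at 0 h over 17 such genes, 14 were overlapped at 120 h, beside 75.0% of all promoter peaks. The median width ratio of the 14 was 1.03, and 6 were narrower, beside 0.95 and 62.9% for all promoters. Npat, the coactivator of histone transcription that cyclin E and Cdk2 act on, had a promoter peak in every list, of 872 and 897 bp at 0 and 120 h. So did Casp8ap2 (963 and 863 bp), a component of the histone locus body, and Slbp (980 and 1111 bp), which binds the stem-loop of the mRNA. Lsm10 and Lsm11, parts of the U7 particle that directs 3′ end cleavage, kept 2 peaks each at 0 and 120 h, and Zfp473, which binds that particle, had 2 and 1. Promoter peaks at these times measured 592 and 564 bp for Lsm10, 1066 and 679 bp for Lsm11, and 905 and 966 bp for Zfp473. Hinfp, a factor of H4 promoters, had 3 and 1 peaks at 0 and 120 h and none at 36 h. Eri1, an exonuclease of histone mRNA decay, and Pou2f1, the octamer factor, each had 6 and 1 peaks at 0 and 120 h. Ccne1 and Ccne2, the cyclins E, had 4 and 3 peaks in the 0 h list and 3 and 1 in the 120 h list, and their partner Cdk2 had 1 at both.

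Among the processing genes, Sympk had 3 and 1 peaks at 0 and 120 h, Cpsf3, the cleavage enzyme, had 1 at both, and Srrt had 1 at both. Coil, the coilin gene, had 1 peak at both, of 867 and 558 bp at the promoter, and none at 96 h. Ncbp1, of the cap-binding complex, had none at either and 1 each at 8, 24, 36, 72 and 96 h. Counted by gene, 7 of these 17 had fewer peaks at 120 h than at 0 h, 10 had as many and 0 had more, beside 71.4% of all genes with an assigned peak at 0 or 120 h that had fewer. Their distal peaks numbered 21 and 5, or 23.8% of the 0 h number, beside 32.8% for all distal peaks. Eri1, Ccne2 and Pou2f1 also went from 2 promoter peaks to 1.

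Histone genes that are expressed outside S phase had promoter peaks that in the median were of like width at both times, though not in each gene. Of 8 promoter peaks in a list of 14 such genes, 7 were overlapped at 120 h with a median ratio of 1.01, and 3 were narrower. Over all promoters 75.0% were overlapped, with a median ratio of 0.95 and 62.9% of the overlapped ones narrower. H2afz, which encodes the variant H2A.Z, had a promoter peak of 1012 and 1233 bp at 0 and 120 h while its peaks numbered 5 and 1. H2afy, which encodes macroH2A1, had 6 and 2 peaks at 0 and 120 h, with a promoter peak of 685 and 1014 bp. H2afy2 and the oocyte linker gene H1foo each had 2 and 0, none of them at a promoter. For 30 S phase genes, 24 of 28 promoter peaks were overlapped at 120 h, beside 75.0% of all. Their median ratio was 1.00 with 12 narrower, beside 0.95 and 62.9% for all. Rrm2, a subunit of ribonucleotide reductase, had 9 and 3 peaks at 0 and 120 h with a promoter peak of 960 and 942 bp. Gins2 had 6 and 3 peaks, E2f2 had 8 and 5, and Mcm5 had 3 and 1. The promoter peak of Gins2 measured 672 and 804 bp at these times. Those of Mcm5 added to 1098 bp at 0 h, and it had none at 120 h. The promoters of these genes of the same cell cycle phase thus had a median ratio near 1 where the histone promoters had 0.80. Single genes departed from that median, and the difference has no test. The 4 overlapped promoter peaks of the 8 myeloid markers had a median ratio of 0.82 at 120 h, with 3 narrower, so a ratio near that of the histone genes also occurred in this small list.

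In 14 histone chaperone genes, 3 of which are also in the S phase list, 7 of 11 promoter peaks were overlapped, beside 75.0% of all. Their median ratio was 0.92 with 5 narrower, beside 0.95 and 62.9% for all. Nasp and Atrx, with promoter peaks adding to 1359 and 1440 bp at 0 h, had no peak at 120 h, while Supt16 had 4 peaks and 1, and Chaf1b 4 and 2. In 16 cell cycle exit genes, 14 of 20 promoter peaks were overlapped, with a median of 1.03 and 7 narrower, against the same 75.0%, 0.95 and 62.9%. Mxd4 had 8 and 1 peaks at 0 and 120 h, Ccng2 had 7 and 1, Cdkn2c had 7 and 3, and Rb1, the retinoblastoma gene, had 6 and 2. Promoter motifs of the histone starts were counted by their coverage at 120 h. CCAAT was in 42 of 49 windows of covered starts and in 6 of 8 of the others, TATAAA in 28 of 49 and 4 of 8, and the octamer in 11 of 49 and 0 of 8. The octamer was found in H2A and H2B windows only, and of the 8 starts only that of Hist1h2af is of these families. Its count therefore does not separate the motif from the family.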

How the data were processed

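Nuclei of 20 samples were profiled by ATAC-seq. The authors deposited 1 annotated peak list per time point, with start, end, distance to the nearest start and nearest gene of each peak on mm10, per the file headers, and a score that is 0 for every peak. The submitters' processing notes name BWA, MACS2 2.0 and STAR 2.5, with no role given, and the build mm9, so the build rests on the headers. How the 2 samples of a time point were combined is not given in these sources, and read depth is unknown.

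Members and gene lists were chosen with earlier results of these data known. One marker of other cells is not reported here. Peaks of 2 lists were matched by an overlap of 1 bp, and width was end minus start plus 1. Promoter meant at most 1000 bp from the nearest start as deposited, and a start was covered when a peak lay over the RefSeq start (GRCm38.p6). Shares carry Wilson intervals and medians distribution-free binomial intervals, both 95%, for counting error only. Background shares are those of all promoters, distal peaks or starts treated in the same way. Genes were named by a rule: up to 12 with an assigned promoter peak at only 1 of 0 and 120 h, the 10 with the widest promoter peaks at 0 h, the 5 with most distal regions, every Hist2, Hist3 and Hist4 gene with a promoter peak, all regulators, and up to 4 of each other list. Other histone genes were chosen after their values were seen: those whose starts were not covered at 120 h or in any list, those given as examples of edges, split peaks and near copies, and those whose sequence is shown.

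The overlap, width and interval steps were tested on simulated data. Alternatives covered the promoter distance, list length, overlap, the lists compared, gene assignment, width class, near-identical copies and tRNA genes. Software was scipy 1.17.1, pandas 2.3.3 and numpy 2.4.6 under Python 3.11.15, with figures by matplotlib 3.10.9.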

Additional observations from a re-analysis of the deposited data

How the results depend on the processing

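The count of histone promoter peaks stayed within 1.5 times its value under each alternative run: 47 to 50 against 56 at 0 h and 33 to 46 against 46 at 120 h. The fall from 0 to 120 h was less stable. It went from 47 to 45 with promoters within 500 bp and from 49 to 46 with an equal number of widest peaks. With the widest 50% of each list it went from 50 to 33. The size of the fall thus depends on the setting. The share of 0 h histone promoter peaks overlapped at 120 h was 76.8%, and 74.0 to 85.7% under the alternatives other than the late list. With the 96 h list in place of 120 h it was 91.1% for promoter peaks and 45.7% for distal peaks, so the share overlapped depends on the late list. With every list cut to an equal number of widest peaks, the distal share was 37.5% in place of 22.9%, over 8 peaks (13.7 to 69.4%). For distal peaks on tRNA genes the share at 120 h was 41.7% (12 peaks), and for the other 23 it was 13.0%, in a split chosen after seeing the data. The median share of a 0 h histone promoter peak covered at 120 h, another measure over all 56 peaks whether overlapped or not, was 0.71. The median width ratio at 120 h was 0.80 and between 0.81 and 0.83 under the alternatives, the 0.81 being that of the 96 h list. The exception was the ratio relative to promoters of the same width class, which was 0.87. The cause was not tested. Starts covered at 120 h numbered 49 of 61 by RefSeq position. Histone genes with an assigned promoter peak numbered 42 at that time, which is a count of another kind. No paired analysis was possible because the lists hold 1 set of peaks per time point and no column per replicate. For the same reason no replicate could be left out. Unknown read depth limits every statement on a peak that is not listed.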

Other observations

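The tRNA genes interleaved with the Hist1 genes were under a peak in smaller number at 120 h than at 0 h. Between the first and last Hist1 gene of the clusters (chr13:21715711-23934913), a peak overlapped 39, 32, 21 and 15 of 77 tRNA genes at 0, 72, 96 and 120 h. Elsewhere in the genome a peak overlapped 163, 150, 120 and 108 of 353 at the same times. Of the tRNA genes overlapped at 0 h, 14 of 39 were overlapped at 120 h among the histone genes (35.9%), and 97 of 163 elsewhere (59.5%). The difference was not tested, and neighbouring tRNA genes can share a peak.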
